A study of Mus musculus with 35 samples.

Results

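The genes described here are the nuclear genes of the mitochondrial respiratory chain and the ATP synthase, taken by name from the expression table of a mouse lung RNA-seq study. A gene was a member when its symbol began with Nduf followed by a, b, c, s or v, or with Uqcr, Cox4i, Cox5, Cox6, Cox7, Cox8 or Atp5. The rule found 86 of the 22211 genes in the table, and all 86 passed the filter on low values. By complex, 36 were counted with complex I, 8 with complex III, 18 with complex IV and 16 with complex V. The other 8 encode assembly factors caught by the name rule, namely Ndufaf1 to Ndufaf7 and Atp5sl. Atp5s was placed with complex V by its name alone, and its RefSeq symbol is Dmac2l, beside Dmac2 for Atp5sl.

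The 35 libraries came from perfused left lungs of male C57BL/6 mice aged 7 to 9 weeks, and the study compared 2 zeitgeber times (hours after lights on) under 3 treatments. The diphtheria toxin (DT) groups were MRP8-Cre;iDTR-flox mice given the toxin at 10 ng per g, with 3 mice at ZT16 and 4 at ZT4. The anti-Ly6G groups were wild-type mice given the neutrophil-depleting antibody clone 1A8 at 3 µg per g, with 7 mice at ZT16 and 7 at ZT4. The control groups were wild-type mice given isotype IgG, also with 7 mice at each time. Injections were subcutaneous on 2 consecutive days, and every lung was taken in the morning of day 3, the ZT16 mice having been housed under an inverted light cycle. Time and housing therefore cannot be told apart. The toxin receptor is switched on only where the MRP8 promoter, active in neutrophils and some other myeloid cells, has driven Cre. All DT mice belong to 1 batch (April 2018) and all others to batches of July and September 2017, so toxin, genotype and batch cannot be told apart. For that reason DT levels were not tested against the other treatments, and only time differences within a treatment, and differences between those, were.

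Oxidative phosphorylation passes electrons from NADH and succinate along complexes I to IV to oxygen, pumping protons across the inner mitochondrial membrane, and complex V lets the protons back to make ATP. A small set of subunits of complexes I, III, IV and V is encoded by the mitochondrial genome, and all other subunits are nuclear, made in the cytosol and imported. Nuclear respiratory factors, ETS-family GABP, YY1 and the PGC-1 co-activators are known regulators of these nuclear genes. Most of the encoded proteins are small, and so are their messages. Member transcripts had a median length of 863 bases (360 to 4715), against 2847 bases over all genes tested, and 50 of the 86 were no longer than 1000 bases.

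The deposited values were normalised expression values that summed to between 962649 and 1033550 per library, and 15351 to 15802 genes per library reached a value of 1. Read depth is unknown. Markers of alveolar type 2, club, ciliated and endothelial cells were present in every library, in keeping with the lung label. The summed level of 8 neutrophil markers, of which all but Ly6g passed the filter, spanned 30.4 to 58.7 in DT lungs at ZT16, 23.0 to 38.3 in anti-Ly6G lungs at ZT16 and 25.7 to 90.6 in control lungs at ZT16. At ZT4 it spanned 36.9 to 42.5 in DT lungs, 28.1 to 61.9 in anti-Ly6G lungs and 48.1 to 769 in control lungs, where 1 library of the September batch held the highest value. The ranges overlapped between treatments except at ZT4, where the DT lungs all lay below the control lungs.

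In DT lungs, 27 of the 86 members (31.4%), from complexes I, III, IV and V, rose at ZT16 over ZT4, 0 fell and the others did not pass. The threshold was an adjusted p below 0.05 (limma, Benjamini-Hochberg over all genes), which 5.30% of all 16786 genes tested passed upward and 9.98% downward. Under quantile normalization 42 members rose and 0 fell, against 7.57% of all genes upward and 7.05% downward. The median difference of the members was 0.20 on the log2 scale, against -0.01 over all genes tested, and 76 of the 86 differences were positive. In bulk tissue, fewer cells of a type and less RNA per cell cannot be told apart. By complex, 13 of 36 complex I members rose, 4 of 8 of complex III, 6 of 18 of complex IV and 4 of 16 of complex V, while 0 of the 8 assembly factors passed the test. The median differences were 0.21 for complex I, 0.23 for complex III, 0.21 for complex IV, 0.14 for complex V and 0.17 for the assembly factors.

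**Figure D1:**
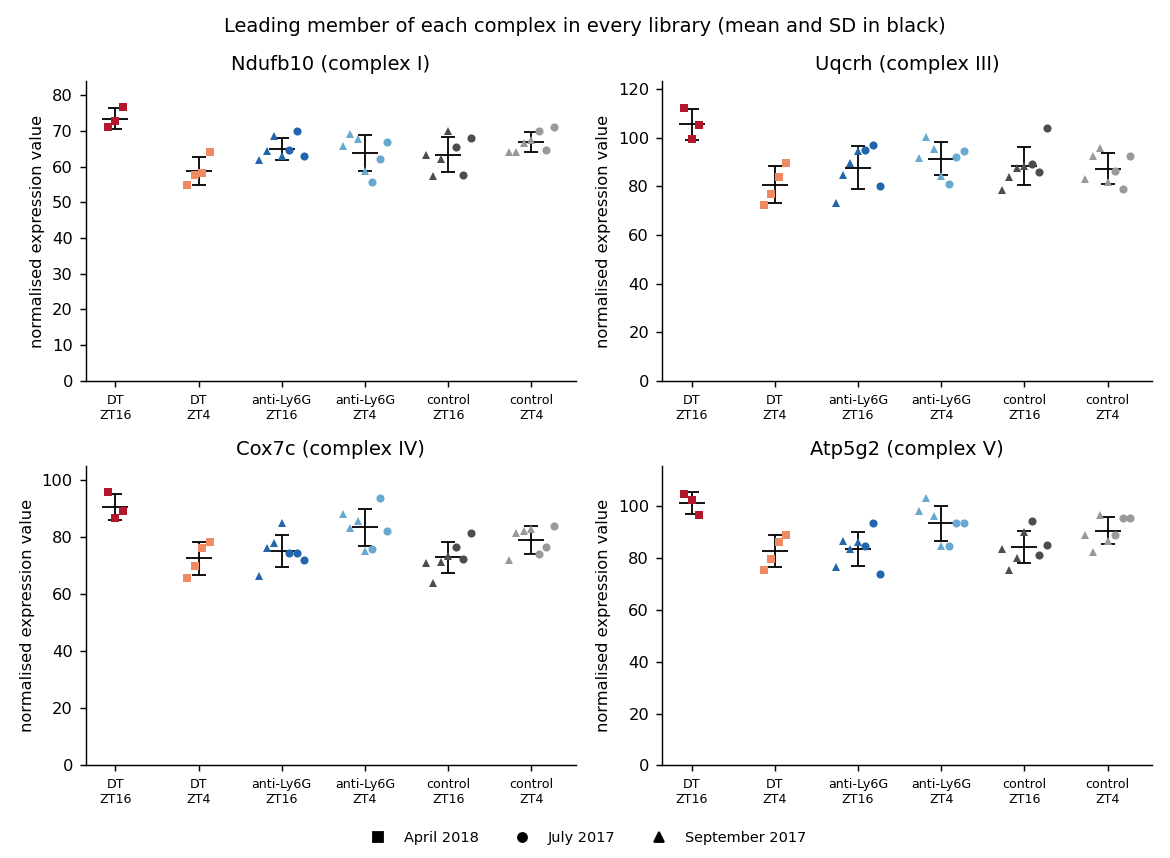
Normalised expression values of Ndufb10, Uqcrh, Cox7c and Atp5g2 in each library, with DT, anti-Ly6G and control from left to right and ZT16 left of ZT4, 1 point per mouse (marker by batch) and the group mean and SD in black. For Ndufb10 the 3 DT lungs at ZT16 sit between 71.0 and 76.6, all above the 4 DT lungs at ZT4, which span 54.7 to 64.1.

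In complex I the member of smallest p was Ndufb10, an accessory subunit of the membrane arm. Its values were 71.0, 72.6 and 76.6 in DT lungs at ZT16 and 54.7, 57.7, 58.1 and 64.1 in DT lungs at ZT4. The groups did not overlap, and the difference was 0.32 ± 0.07 (log2, SE; limma adjusted p = 0.0028). Ndufc2, another membrane-arm accessory subunit, had 70.8, 72.1 and 72.4 at ZT16 and 56.5, 57.6, 58.7 and 61.8 at ZT4, and it rose by 0.29 (adjusted p = 0.0073). Ndufb6, a membrane-arm accessory subunit too, rose by 0.32 (adjusted p = 0.0066), but 39.0% of its exon bases lie under another gene, Smim27, and the use of strand in counting was not given. The other 10 that rose were Ndufs5, Ndufb7, Ndufa13, Ndufb4, Ndufa12, Ndufs7, Ndufa2, Ndufa5, Ndufb8 and Ndufa1, by 0.22 to 0.34.

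The 7 nuclear core subunits of complex I, which carry the flavin and the iron-sulfur clusters or help bind quinone, were set beside the 29 accessory subunits, a grouping added after the values were seen and so not tested. Ndufs7, which holds the cluster next to quinone, rose by 0.27, the only core subunit that passed, and the core median was 0.10 against 0.23 for the accessory subunits, of which 12 rose. Ndufs1, the largest core subunit, had 70.9, 72.8 and 73.1 in DT lungs at ZT16 and 69.4, 71.3, 71.4 and 77.5 in DT lungs at ZT4. These ranges overlapped, with a difference of -0.001. Transcript length ran alongside: the core transcripts had a median of 1623 bases and the accessory ones 763 bases.

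In complex III, the 4 members that rose were small subunits around the catalytic centre. Uqcrh, the acidic hinge protein that helps dock cytochrome c, had 99.5, 105 and 112 in DT lungs at ZT16 and 72.2, 76.8, 84.1 and 89.8 in DT lungs at ZT4. The groups stood apart, by 0.39 ± 0.09 (adjusted p = 0.0043). Uqcr10, a small membrane subunit, had 56.1, 58.8 and 62.8 at ZT16 and 41.9, 42.1, 48.2 and 51.1 at ZT4, a rise of 0.37 (adjusted p = 0.0110). Uqcrq and Uqcr11, small subunits as well, rose by 0.31 and 0.27. The core proteins Uqcrc1 and Uqcrc2 did not pass, with differences of -0.006 and -0.01.

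In complex IV the structural subunits Cox7c and Cox6c had the smallest p-values, and Cox6b2 and Cox5a the largest rises among the members that passed. Cox7c had 86.9, 89.4 and 95.8 in DT lungs at ZT16 and 65.9, 69.8, 76.2 and 78.4 in DT lungs at ZT4, apart in every library, and rose by 0.32 ± 0.08 (adjusted p = 0.0066). Cox6c had 127, 133 and 135 at ZT16 and 94.9, 101, 112 and 117 at ZT4, and rose by 0.31 (adjusted p = 0.0071). Cox5a, a matrix-side subunit, had 50.6, 50.7 and 51.1 at ZT16 and 34.0, 37.7, 40.5 and 42.1 at ZT4, a rise of 0.40 (adjusted p = 0.0122). Cox4i1, the ubiquitous isoform of the regulatory subunit that binds ATP, rose by 0.29 (adjusted p = 0.0196), and Ndufa4, first assigned to complex I and now counted with complex IV, rose by 0.30 (adjusted p = 0.0136). Cox6b2, known as the testis isoform of subunit 6b, had 12.8, 15.1 and 17.5 at ZT16 and 8.93, 11.4, 11.7 and 11.9 at ZT4, and it rose by 0.45 (adjusted p = 0.0118).

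In complex V the members that rose belong to the membrane part and the peripheral stalk, or stator. Atp5g2 and Atp5g3 encode the same mature subunit c, the proton-carrying ring, from different genes, and Atp5l and Atp5h encode subunits g and d of the membrane and stator parts. Atp5g2 had 96.5, 102 and 105 in DT lungs at ZT16 and 75.4, 79.5, 86.3 and 88.9 in DT lungs at ZT4. All 3 ZT16 values lay above all ZT4 values, by 0.29 ± 0.08 (adjusted p = 0.0106). Atp5g3 had 143, 145 and 145 at ZT16 and 109, 115, 128 and 134 at ZT4, a rise of 0.25 (adjusted p = 0.0297), and Atp5l and Atp5h rose by 0.27 and 0.20. Of the 5 subunits of the catalytic head with its central stalk, 0 passed in either direction. Their median was -0.02, against 0.25 for the other 11 members of complex V. This grouping too was added after the values were seen and was not tested. Transcript length again ran alongside, with a median of 1410 bases for these 5 and 809 bases for the other 11. Atp5a1 and Atp5b, which form the alternating head, had differences of -0.02 and -0.08.

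At the edge of the threshold, Uqcr11 passed (adjusted p = 0.0387) and Ndufs3, a core subunit of complex I, did not (adjusted p = 0.0520). Cox7a2, Ndufa8 and Atp5j2 had adjusted p-values of 0.0559, 0.0566 and 0.0572. Without regard to the test, 39 members had all 3 DT lungs at ZT16 above all 4 at ZT4, against 10.9% of all genes tested, and 2 had them all below, against 15.3%. The 27 that rose are among the 39. The 2 below were Atp5b and Ndufb2, an accessory subunit of complex I. Atp5b had 465, 468 and 474 at ZT16 and 487, 495, 503 and 504 at ZT4. Ndufb2 had 17.8, 18.1 and 18.7 at ZT16 and 19.2, 21.8, 24.4 and 25.6 at ZT4, with a difference of -0.31 (adjusted p = 0.0742).

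**Figure D2:**
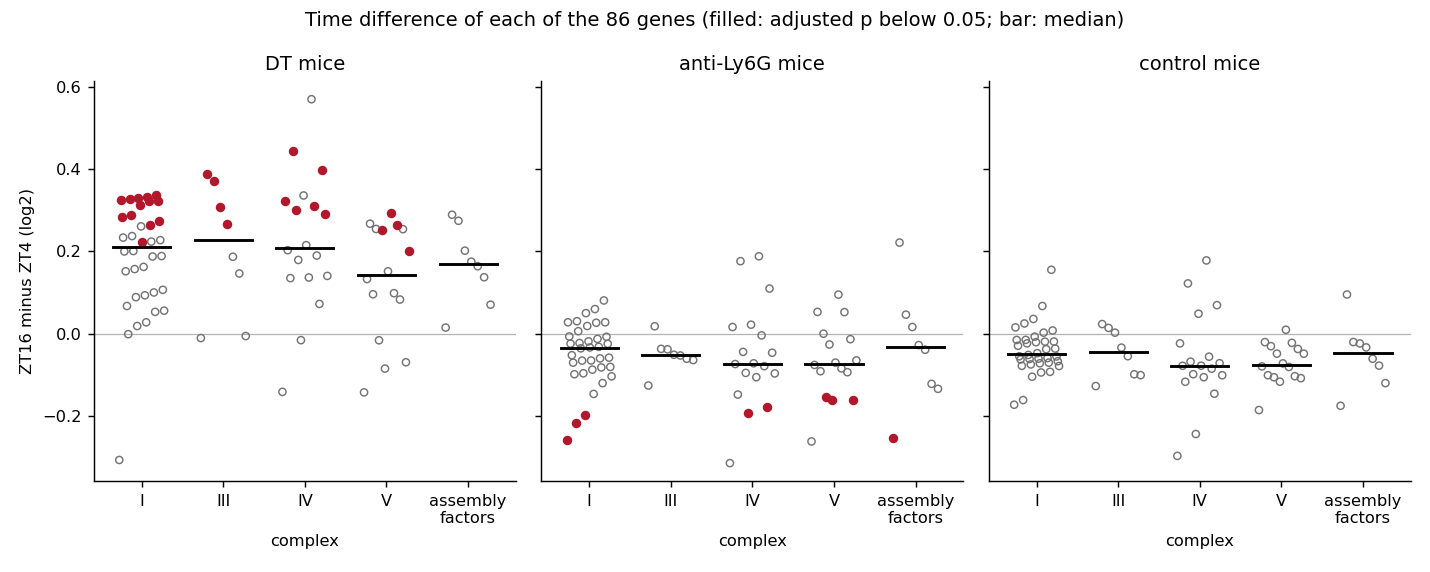
ZT16 minus ZT4 difference on the log2(value + 0.5) scale for every member, grouped by complex, in DT, anti-Ly6G and control lungs. Filled points passed the test: 27 higher in DT lungs, 9 lower in anti-Ly6G lungs and 0 in control lungs.

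The count in DT lungs rested in part on single libraries. As a mean deviation from each member's mean over all libraries, the members stood at 0.09 to 0.13 (log2) in the 3 DT lungs at ZT16, and at -0.19, -0.13, -0.01 and 0.03 in the 4 at ZT4. The lowest of these is DT lung 1 at ZT4 (lungs are numbered in the table's order), and without it 7 members rose, with a median difference of 0.15. Without DT lung 2, 3 or 4 at ZT4, 15, 29 and 34 rose, and in the last case 1 fell. Without DT lung 1, 2 or 3 at ZT16, 15, 14 and 12 rose. The share of all genes that rose across these 7 fits was 2.05% to 5.47%, the lowest also without DT lung 1 at ZT4. With only the DT libraries in the fit, 18 members rose, and the share of all genes in that fit is not given here. Ndufb10, Ndufb6, Ndufc2, Uqcrh, Cox6c and Cox7c passed with any 1 of the 7 DT libraries left out.

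**Figure D3:**
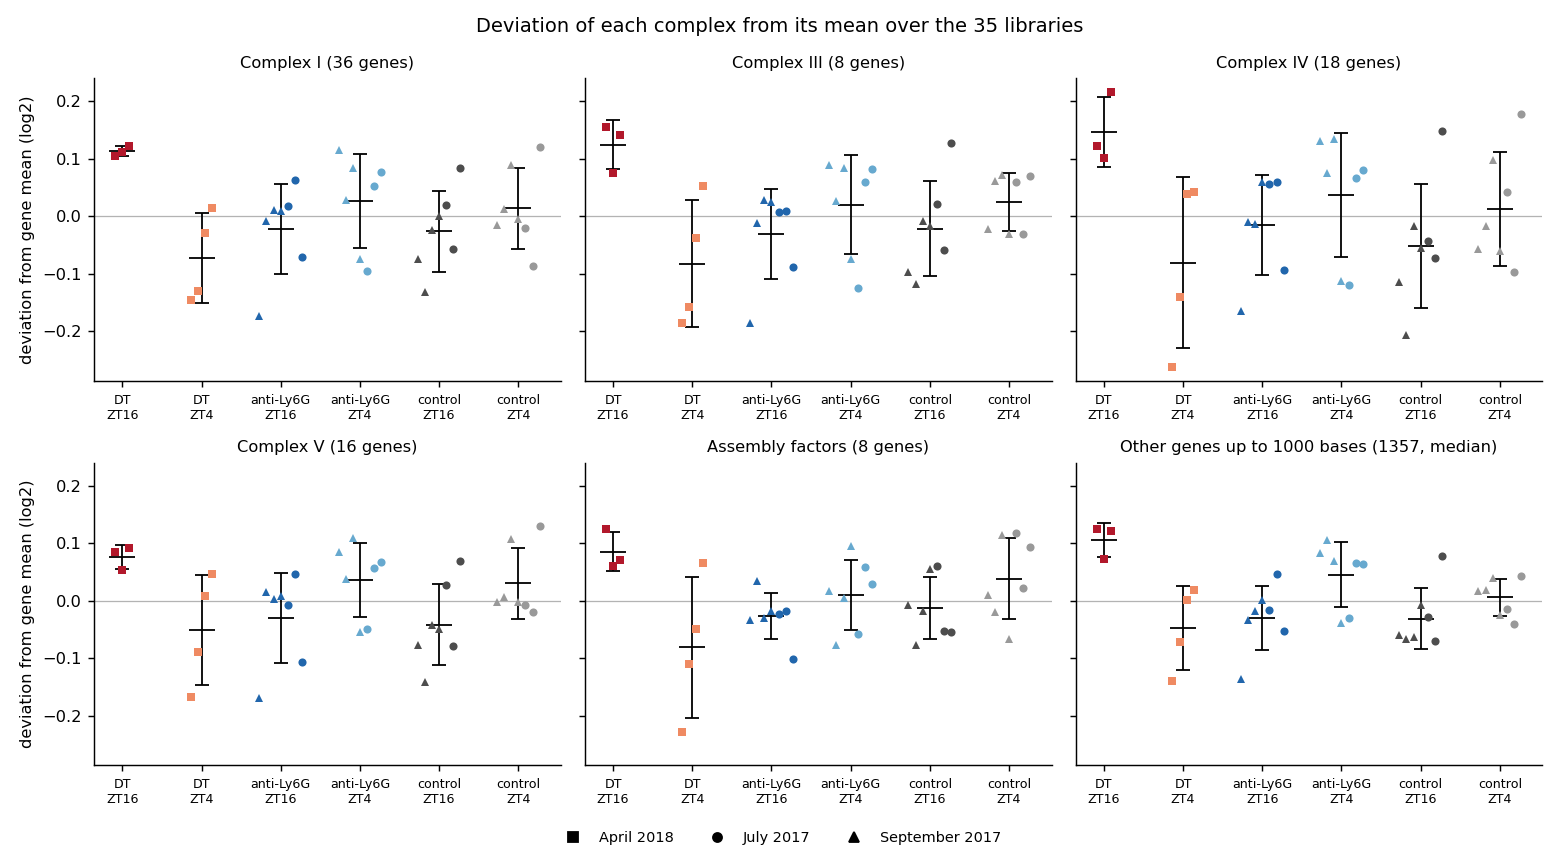
Mean deviation (log2) of the members of each complex from their mean over all libraries, one point per library, with DT, anti-Ly6G and control from left to right and ZT16 left of ZT4. Over all members the DT lungs at ZT16 lie between 0.09 and 0.13, while the DT lungs at ZT4 spread between -0.19 and 0.03.

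The 4 promoters below belong to the member of smallest p in each complex in the DT comparison, Ndufb10 for complex I, Uqcrh for complex III, Cox7c for complex IV and Atp5g2 for complex V. Each runs 5′ to 3′ on the gene's strand from 250 bases before to 50 bases after the transcript start, in RefSeq's GRCm38.p6 coordinates, and capitals mark a match to 1 of the motifs searched. All are on the minus strand. Ndufb10 lies at chr17:24724374-24724673, Uqcrh at chr4:116075021-116075320, Cox7c at chr13:86046746-86047045 and Atp5g2 at chr15:102670998-102671297.
Ndufb10: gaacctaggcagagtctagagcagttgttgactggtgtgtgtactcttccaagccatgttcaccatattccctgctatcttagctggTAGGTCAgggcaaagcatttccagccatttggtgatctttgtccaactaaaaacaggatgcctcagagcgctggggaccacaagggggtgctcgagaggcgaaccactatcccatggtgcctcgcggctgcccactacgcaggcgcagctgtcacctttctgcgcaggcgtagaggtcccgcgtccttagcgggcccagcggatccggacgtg
Uqcrh: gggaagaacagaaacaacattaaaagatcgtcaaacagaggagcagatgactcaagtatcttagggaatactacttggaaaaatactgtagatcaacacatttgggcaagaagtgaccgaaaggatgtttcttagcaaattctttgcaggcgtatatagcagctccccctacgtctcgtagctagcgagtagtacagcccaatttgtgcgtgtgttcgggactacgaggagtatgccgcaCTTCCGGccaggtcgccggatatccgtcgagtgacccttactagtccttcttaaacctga
Cox7c: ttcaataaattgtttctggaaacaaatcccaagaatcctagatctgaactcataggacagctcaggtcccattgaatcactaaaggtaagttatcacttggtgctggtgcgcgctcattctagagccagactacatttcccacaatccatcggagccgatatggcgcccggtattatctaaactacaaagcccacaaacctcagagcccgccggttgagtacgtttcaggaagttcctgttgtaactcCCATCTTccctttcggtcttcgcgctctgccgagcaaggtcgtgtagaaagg
Atp5g2: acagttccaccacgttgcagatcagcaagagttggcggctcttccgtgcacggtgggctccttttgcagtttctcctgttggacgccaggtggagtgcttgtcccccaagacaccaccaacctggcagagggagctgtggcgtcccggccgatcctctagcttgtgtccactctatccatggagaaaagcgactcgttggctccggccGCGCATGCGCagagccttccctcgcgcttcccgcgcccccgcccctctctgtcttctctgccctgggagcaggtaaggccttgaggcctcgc

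The motifs, searched on both strands, were the NRF1 core GCGCATGC, the ETS site CCGGAAG, the YY1 site AAGATGG, the E-box CACGTG, the D-box TTANGTAA and the ROR element TAGGTCA. The capitals in Ndufb10 are a ROR element, those in Uqcrh an ETS site read on the other strand, those in Cox7c a YY1 site on the other strand, and those in Atp5g2 an NRF1 core on each strand, the pair overlapping. RefSeq promoters were matched for 72 of the 86 members, 23 of them among the 27 that rose. The NRF1 core was in 15.3% of member promoters, against 2.8% of all 27025 promoters, the ETS site in 19.4% against 9.12% and the YY1 site in 15.3% against 6.48%. For the clock-related motifs the shares were 9.7% against 7.24% for the E-box, 2.8% against 2.34% for the D-box and 4.2% against 2.64% for the ROR element. Between the 23 members that rose and the other 49, the shares were 13.0% and 16.3% for the NRF1 core, 26.1% and 16.3% for the ETS site and 13.0% and 16.3% for the YY1 site. These are descriptions of letters in a window, and no difference between them was tested.

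Other genes with short transcripts were also higher at ZT16 in DT lungs, on the median. Of 1357 genes with transcripts up to 1000 bases and outside the member list, 140 were higher at ZT16 (10.3%) and 34 lower, with a median of 0.15. Genes over 5000 bases had a median of -0.15, with 59 of 2922 higher and 693 lower. Among members, 24 of the 50 up to 1000 bases rose, with a median of 0.25, and 3 of the 36 longer ones did (Ndufa13, Ndufa12 and Uqcrq), with a median of 0.12. In the bin from 500 to 750 bases, 17 of 31 members rose with a median of 0.25, against 49 of 447 other genes with a median of 0.15. The medians of the members lay above those of other genes in every length bin that held members, by 0.04 to 0.16 (log2). Only 2 members, Ndufb2 (4371) and Atp5g1 (4715), exceed 4000 bases, and their shortest principal transcripts have 455 and 596 bases. By the shortest principal transcript, 6 of the 36 longer members, Uqcrq (405) among them, would be up to 1000 bases, so their bins depend on the transcript chosen. Counts of calls also follow precision: the members up to 1000 bases had a median SE of 0.09 and the other short genes 0.21. Library by library, the median deviation of the other short genes was 0.07 to 0.13 in DT lungs at ZT16 and -0.14 to 0.02 in DT lungs at ZT4, lowest in the same DT lung 1.

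**Figure D4:**
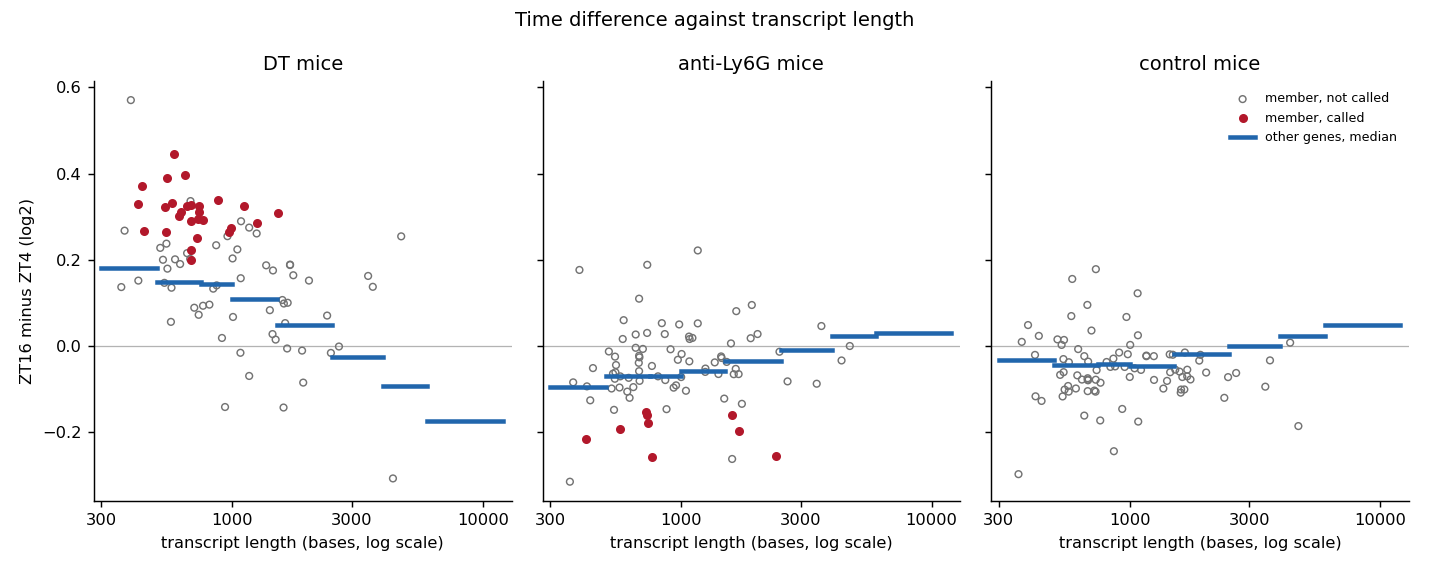
ZT16 minus ZT4 difference (log2) of each member against transcript length (bases, log axis) in DT, anti-Ly6G and control lungs, filled where it passed the test, with blue bars for the median of other genes in each length bin. In DT lungs the bars run between 0.18 at up to 500 bases and -0.17 above 6000 bases.

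When a smooth trend on transcript length was removed within each library, 5 of the 86 members rose and 0 fell in DT lungs, against 4.59% of all genes that rose and 5.91% that fell, so the members' share was near that of all genes. The median was 0.10, and 66 of 86 differences were positive. The 5 were Ndufb10 at 0.21 (adjusted p = 0.0269), Uqcrh at 0.26 (adjusted p = 0.0097), Cox6c at 0.19 (adjusted p = 0.0459), Cox5a at 0.27 (adjusted p = 0.0402) and Atp5g1, the third gene for subunit c, at 0.35 (adjusted p = 0.0260). The first 4 are among the 27. Atp5g1 was taken at 4715 bases while its shortest principal transcript has 596, so its value here depends on the length chosen. With the shortest in place of the longest principal transcript as the length, a choice made after the data were seen, 6 rose and Ndufb2 fell, against 4.76% of all genes upward and 6.21% downward, and 4 members passed under both choices. The length-removed medians were 0.12 for complex I, 0.12 for complex III, 0.10 for complex IV and 0.03 for complex V, against 0.03 for the other genes up to 1000 bases and 0.006 for all genes. How far transcript length, or what goes with it, accounts for the differences was not tested beyond this.

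Other mitochondrial and small-protein gene lists were set beside the members in DT lungs. The 13 protein-coding genes of the mitochondrial genome, which encode subunits of complexes I, III, IV and V, were the list with the highest median, 0.46, and 12 rose. mt-Nd3 rose by 0.52, mt-Nd6 by 0.56 and mt-Co3 by 0.45, and 9 of the 13 passed with the length trend removed. Of the 4 genes of complex II, all nuclear, 0 passed (median 0.09), and of 16 citric acid cycle genes 0 passed (median 0.002). Among 40 electron carriers and other assembly factors 4 rose and 1 fell, with cytochrome c (Cycs) higher by 0.47, the electron-transfer flavoprotein subunit Etfb by 0.25 and the complex III assembly factor Uqcc2 by 0.40. Of 16 regulators of mitochondrial biogenesis 1 rose and 2 fell: the nuclear receptor Esrra rose by 0.28, Pprc1, a PGC-1-related co-activator, fell by 0.48 and Gabpa, the DNA-binding part of GABP, fell by 0.20.

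Lists of small proteins outside the respiratory chain had positive medians as well. Of 81 cytosolic ribosomal protein genes 16 rose and 0 fell (median 0.16), at a median length of 886 bases, beside 863 for the members. Of 77 mitochondrial ribosomal protein genes 5 rose (median 0.14), of 23 import genes 3 (median 0.17), of 38 proteasome genes 5 (median 0.08) and of 24 Sm and Lsm genes 5, with 1 lower (median 0.16). Of 8 small subunits of RNA polymerase II 1 rose (median 0.20). How the members differ from these lists was not tested. Tomm40, the import pore, rose by 0.34 and Mrpl28, a mitochondrial ribosomal protein, by 0.43.

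**Figure D5:**
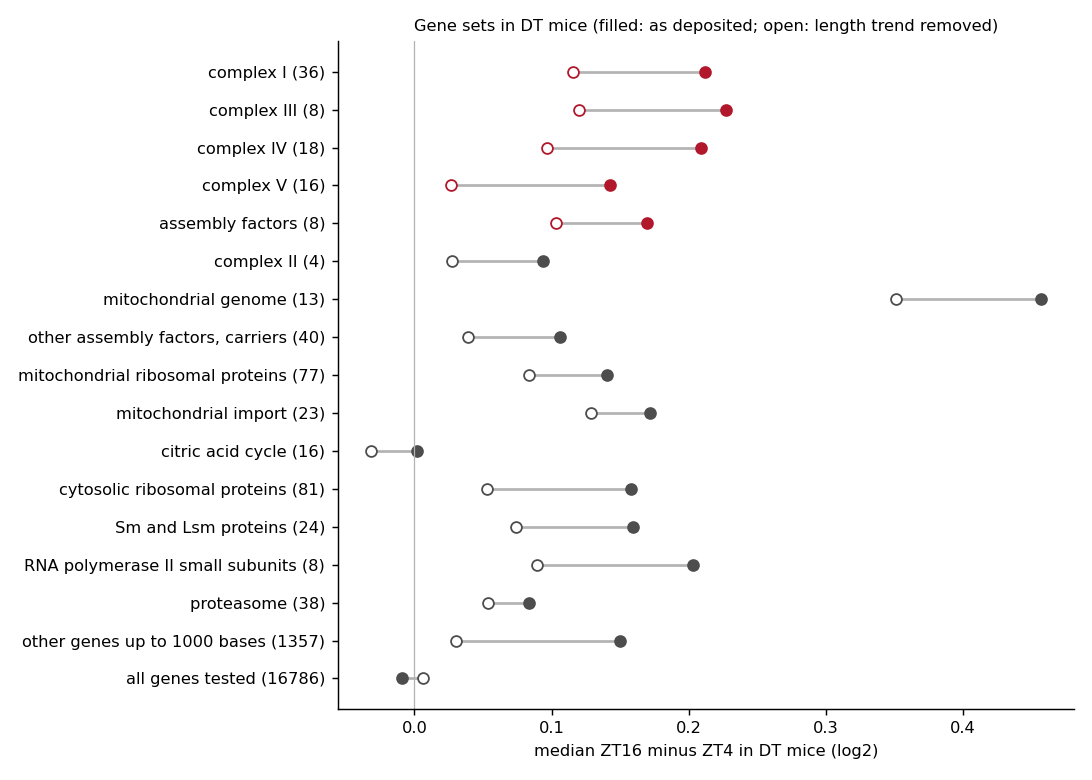
Median ZT16 minus ZT4 difference (log2) in DT lungs for each complex and each comparison list, with the number of genes tested in brackets, as deposited (filled) and with the length trend removed (open). The mitochondrial genome stands at 0.46, complexes I, III and IV at 0.21 to 0.23, and the citric acid cycle at 0.002.

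Markers of several lung cell types differed between the same DT libraries. The summed level of 5 endothelial markers was 1785 to 1949 at ZT16 and 2538 to 3065 at ZT4, with 4 of 5 lower, among them Cdh5 by -0.88. The sum of 3 club cell markers was 36820 to 45550 at ZT16 and 24840 to 32230 at ZT4, and 3 of 3 were higher. The sum of 5 ciliated cell markers was 314 to 391 at ZT16 and 238 to 297 at ZT4, with 2 of 5 higher, and of 7 alveolar type 2 markers 3 were lower while their sums overlapped. Of 4 fibroblast markers 1 was lower (1006 to 1202 against 1246 to 1381). Of 14 heart muscle markers 0 passed, and their sums overlapped (808 to 1348 against 844 to 1219), while of 3 skeletal muscle markers Tnnt3 was higher by 0.94. Of 7 neutrophil, 5 alveolar type 1, 4 alveolar macrophage, 4 B cell, 3 T cell and 3 natural killer markers, 0 passed. The part of cell composition in the members' differences was not tested.

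In anti-Ly6G lungs a few members passed, lower at ZT16 in the values as deposited. Of the 86, 0 were higher and 9 fell at ZT16, against 10.6% of all genes higher and 10.4% lower, so the members' 10.5% is near the share of all genes. The median was -0.05, against -0.02 over all genes. The 9 were Ndufb3, Ndufs4 and Ndufa1 in complex I, Cox6c and Cox6a1 in complex IV, Atp5f1, Atp5g2 and Atp5g3 in complex V, and the assembly factor Atp5sl. Complex III had none.

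Ndufb3, an accessory subunit of the membrane arm, ranged over 31.8 to 39.0 with a median of 36.2 in anti-Ly6G lungs at ZT16, and over 39.0 to 46.6 with a median of 42.4 at ZT4. It was the only one of the 9 whose groups did not overlap, and it fell by 0.26 ± 0.06 (log2, SE; limma adjusted p = 0.0032). Atp5f1, the stator subunit b, ranged over 132 to 155 at ZT16 (median 143) and 150 to 167 at ZT4 (median 165), and fell by 0.16 (adjusted p = 0.0096). Atp5sl ranged over 17.2 to 22.1 at ZT16 (median 19.4) and 21.3 to 25.5 at ZT4 (median 24.1), and fell by 0.25 (adjusted p = 0.0059). The groups overlapped for both. Ndufs4, a subunit of the matrix arm, fell by 0.20 (adjusted p = 0.0169), Cox6c by 0.18 (adjusted p = 0.0180) and Atp5g2 by 0.16 (adjusted p = 0.0337).

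All 9 had the same sign in both batches, though neither batch alone gave a call. The differences were -0.27 in July and -0.25 in September for Ndufb3, -0.18 and -0.14 for Atp5f1 and -0.27 and -0.24 for Atp5sl. The 9 were picked from the fit that pools both batches, so shared signs were favoured by that choice and are no replication. Ndufb3, Atp5f1 and Atp5sl passed with any 1 of the 14 libraries left out. Without anti-Ly6G lung 1 of September at ZT16, whose members averaged -0.16 against -0.09 to 0.05 in the other 6, 3 fell and 1 rose. In that fit 8.44% of all genes were lower and 8.58% higher. With each library centred on its median, 5 fell and 2 rose, the share of all genes in that setting not being given here. With the length trend removed, 7 rose and 2 fell (Ndufb3 and Atp5sl), against 12.9% of all genes upward and 8.48% downward, with a median of 0.02, so the sign of the list's median depends on that step. Of 1357 other genes up to 1000 bases 154 were lower and 43 higher (median -0.07). Of the 13 genes of the mitochondrial genome 6 were lower (median -0.22). Of the lymphocyte markers, 4 of 4 B cell, 2 of 3 T cell and 1 of 3 natural killer markers were lower at ZT16, and their part in the result was not tested.

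In control lungs, 0 of the 86 members passed in either direction, against 4.65% of all genes higher and 4.38% lower, and 13 had an unadjusted p below 0.05. The median was -0.06, and 70 of the 86 differences were negative. The shares of all genes with such a p or with a negative difference are not given here. In the length bins up to 1500 bases, the medians of other genes were -0.03 to -0.05. The members of smallest p were Ndufb6 at -0.16 (adjusted p = 0.0654), Atp5g1 at -0.19 (adjusted p = 0.0718), Ndufb3 at -0.17 (adjusted p = 0.0772) and Cox5b, a zinc-binding subunit of complex IV, at -0.24 (adjusted p = 0.0781). Atp5g1 ranged over 40.9 to 52.7 at ZT16 (median 42.6) and 45.7 to 61.5 at ZT4 (median 51.7), and these groups overlapped. With the length trend removed, Cox4i2, Ndufa6 and Cox7a2l were higher, by 0.23, 0.21 and 0.17, and 0 were lower, against 5.37% of all genes higher and 3.97% lower. Without control lung 4 of September or 3 of July at ZT16, or lung 2 of July at ZT4, 2 members passed, and 1 passed without control lung 3 of September at ZT16 or lung 2 of September at ZT4. Across these fits 3.55% to 4.78% of all genes were higher and 3.22% to 4.58% lower.

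Anti-Ly6G treatment was compared with control at each time, and no member passed. Between anti-Ly6G and control lungs, 0 of 86 members were higher or lower at ZT16 and 0 at ZT4, as for all genes (0% in each direction at both times, limma). At an unadjusted p below 0.05 there were 0 members at ZT16 and 3 at ZT4, namely Atp5b at -0.10, Atp5g1 at -0.14 and Ndufaf4 at -0.18. The share of all genes at that unadjusted level is not given here. The median member difference was 0.009 at ZT16 and 0.01 at ZT4. Atp5b, the catalytic beta subunit, ranged over 446 to 514 in anti-Ly6G lungs at ZT4 (median 468) and 487 to 560 in control lungs at ZT4 (median 505), which overlap. The time differences of the 2 treatments also gave 0 calls (0% of all genes), with Ndufb6 at 0.19 and Atp5b at 0.12 closest (adjusted p = 0.812 for the smallest).

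The time difference in DT lungs was tested against that in the other treatments. Against anti-Ly6G, 31 members had a more positive difference in DT lungs, against 7.44% of all genes, and 1 a more negative one, against 11.6%. The median was 0.25. The 31 held 14 members of complex I, 4 of complex III, 6 of complex IV, 6 of complex V and 1 assembly factor, and the 1 was Atp5b at -0.18 (adjusted p = 0.0458). Cox6c had the smallest p, with a difference of 0.49 ± 0.10 (SE; adjusted p = 0.0006) made of 0.31 in DT lungs and -0.18 in anti-Ly6G lungs. Next by p were Cox7c at 0.47, Atp5g2 at 0.46 and Atp5g3 at 0.41, while the largest difference was that of Ndufa1 at 0.55 (adjusted p = 0.0047).

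Against control, 22 members had a more positive difference in DT lungs, against 4.93% of all genes, and 0 a more negative one, against 8.86%, with a median of 0.26. By complex these were 8, 3, 5 and 6 members of complexes I, III, IV and V. Ndufb6 had the smallest p, at 0.49 ± 0.10 (adjusted p = 0.0018), and next by p were Ndufb10 at 0.40, Cox7c at 0.44 and Atp5g2 at 0.40. Both tests share the DT libraries and so are not independent of each other. Of the 27 members that rose in DT lungs, 24 passed against anti-Ly6G, 20 against control and 18 both. The 27 were picked on the same DT libraries that enter both tests, so these counts are no separate support. With the length trend removed 3 were more positive and 2 more negative against anti-Ly6G, where 5.03% and 8.67% of all genes were. Against control 4 were more positive and 1 more negative, where 3.23% and 4.90% of all genes were. Against anti-Ly6G, the 32 calls in both directions became 16 without DT lung 1 at ZT4 and 17 without DT lung 1 at ZT16. Of all genes, 4.28% and 4.93% were then more positive and 8.36% and 8.94% more negative. Against control, the 22 became 9 without DT lung 1 at ZT4 and 13 without DT lung 1 at ZT16, and 34 without DT lung 4 at ZT4 and 35 without control lung 3 of July at ZT16. In that order, 2.17%, 2.82%, 5.04% and 5.86% of all genes were more positive and 4.75%, 5.89%, 8.89% and 9.83% more negative. With each library left out in turn, 15 members passed every time against anti-Ly6G and 9 against control.

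Several subunits exist as paired isoforms with different tissue distributions. Cox4i2, the isoform known for its high level in lung and its link to oxygen sensing, had time differences of 0.07 in DT, 0.19 in anti-Ly6G and 0.18 in control lungs, beside 0.29, -0.05 and -0.09 for Cox4i1. Only the DT value of Cox4i1 passed, and the adjusted p of Cox4i2 was 0.0508 in anti-Ly6G lungs. Cox7a1, the heart and skeletal muscle isoform of subunit 7a, had 6.18, 10.1 and 10.6 in DT lungs at ZT16 and 4.84, 4.92, 6.20 and 7.18 at ZT4. Its groups overlapped (0.57 ± 0.21, adjusted p = 0.0669), while the liver-type Cox7a2 stood at 0.22. The muscle isoforms Cox6a2 and Cox8b had DT differences of 0.34 and 0.14 and the ubiquitous Cox6a1 and Cox8a 0.14 and 0.18, and 0 of these 4 passed in DT lungs. Ndufa4l2, the hypoxia-inducible relative of Ndufa4, had -0.14, -0.10 and -0.15 in DT, anti-Ly6G and control lungs. Cox7a2l, which helps join complexes III and IV into supercomplexes, had -0.02, 0.02 and 0.12.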

How the data were processed

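Lung RNA-seq was measured in 35 mice. Per the labels' protocols, polyadenylated RNA was amplified with a NuGen Ovation Single Cell kit and made into Illumina TruSeq libraries. The authors deposited 1 table of normalised signal values per gene. CASAVA 1.8.2, cutadapt, RSEM 1.2.20 and kallisto 0.43.1 are named in the submitters' processing notes. The scaling, any length or batch correction and the use of strand are not given in the sources used here, so levels were not compared between genes. The table holds no zeros and no counts, so depth is unknown and no count model was used, and no 2 libraries were identical. The columns give group and batch, and library numbers follow table order and pair nothing. Whether mice came from separate cages or litters is not given, so p-values measure the spread between these libraries.

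Values were taken as log2(value + 0.5), which understates changes of low genes. A gene entered the tests if 3 or more libraries reached a value of 1, which left 16786 genes and dropped 5425. The fit used limma 3.58.1 (R 4.3.3) over all 6 groups with a September-against-July term and a mean-variance trend, with 28 residual degrees of freedom. Tests were two-sided, with Benjamini-Hochberg adjustment over all genes and a threshold of 0.05. The procedure was tested on simulated data. Transcript lengths were those of the longest principal transcript of GENCODE M21 (GRCm38), known for 99.67% of genes, and the length trend was a natural spline with 4 degrees of freedom per library. GENCODE M21 lists 9 pseudogene names of the rule, and 0 are in the table, so reads from near-identical copies could fall on members. Exons of 32 members overlap another gene, in 4 over 20% of bases (Ndufaf2, Atp5o, Ndufb6 and Ndufa13), which makes these uncertain.

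The members, lists and tests were chosen with earlier results of these data known. Named genes were the 4 of smallest p per complex and time comparison, the 4 of smallest p in each other comparison, the isoform pairs, and the 3 of smallest p per other list, and others named were chosen after their values were seen. Alternatives were the pseudocount, the filter, centring, quantile normalization, robust variance, the length trend, the batch term, a fit of only the groups compared, batches alone and each library left out. The shortest principal transcript as length was added after seeing the data.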

Additional observations from a re-analysis of the deposited data

Results flagged for a closer look

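Each of the 86 members, and the mean of each complex and of all members, was looked at in each of the 5 groups with 4 or more libraries. In 17 of 460 such combinations, all of them single members, 1 library stood far from the others, and chance gives about 1 in 20. Control lung 3 of July at ZT16 was high for Atp5l (103), Cox7a1 (9.65), Ndufa13 (69.4), Ndufa8 (56.4), Ndufs7 (67.5), Uqcr10 (64.8) and Uqcrh (104). Control lung 3 of July at ZT4 was high for Atp5d (105.5), Atp5j (107) and Ndufb2 (28.6), and control lung 3 of September at ZT4 for Ndufs5 (44.5). At ZT16, anti-Ly6G lung 4 of September was high for Cox6a1 (125.0), and lung 1 of September was low for Ndufb9 (52.0) and Ndufv2 (55.6). At ZT4, anti-Ly6G lung 3 of September was high for Atp5d (106). In DT lungs at ZT4, lung 1 was low for Cox8a (71.6) and lung 4 was high for Ndufs5 (39.3).

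The time difference itself differed between treatments. Against anti-Ly6G, 32 members differed in DT lungs, both directions counted, where 7.44% of all genes were more positive and 11.6% more negative. Among the 32 were Cox6c by 0.49, Cox7c by 0.47, Atp5g2 by 0.46 and Atp5g3 by 0.41 (log2). Against control, 22 differed, where 4.93% of all genes were more positive and 8.86% more negative. Among the 22 were Ndufb6 by 0.49, Ndufb10 by 0.40, Cox7c by 0.44 and Atp5g2 by 0.40. Treatment, genotype and batch cannot be told apart in these differences.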

How the results depend on the processing

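No paired analysis was possible because library numbers follow table order and mark no shared animal. For the counts of members that passed in either direction, the length trend removed gave 3 in control, 5 in DT, and 5 for each of the DT differences against anti-Ly6G and control, and with the shortest transcript 3, 7, 6 and 5. Their medians became 0.0224 and 0.0302 in anti-Ly6G lungs, 0.10 and 0.12 in DT lungs, 0.0778 and 0.0865 for DT against anti-Ly6G, and 0.12 and 0.13 for DT against control. In DT lungs, for DT against anti-Ly6G and for DT against control, quantile normalization gave 42, 43 and 44, median-centred libraries 25, 24 and 18, a fit of only the groups compared 18, 25 and 21, no filter on low values 27, 27 and 19, and a stricter filter 31, 36 and 29. In anti-Ly6G lungs the same 5 gave 11, 7, 6, 6 and 12. The July and September libraries alone gave 0 and 0 in anti-Ly6G lungs, where group sizes are smaller. Leaving out 1 library gave 0 to 2 in control, 4 to 11 in anti-Ly6G, 7 to 35 in DT, 16 to 37 for DT against anti-Ly6G and 9 to 35 for DT against control. In DT lungs, 7.57% of all genes were higher and 7.05% lower under quantile normalization, beside 5.30% and 9.98% in the main fit. The other counts in this paragraph are given without the share of all genes, which changed between settings as well. Without that share they cannot be read as a result about the members, and why they changed was not tested. Of single-member values under alternatives, 5266 kept direction and side of the threshold, 533 no longer passed, 63 newly passed and 0 reversed after passing. A batch fit within DT could not be had, as DT has 1 batch. Depth is unknown, and 3 and 4 mice limit the DT comparison.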
